A study of Mus musculus with 2 samples.

Results

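The genes described here encode the proteins of the cytosolic ribosome. They were chosen by symbol alone from the protein-coding RefSeq genes of mouse chromosomes 1 to 19 (build mm10), as genes named Rpl or Rps with a number, Rplp0, Rplp1, Rplp2 or Rpsa. The rule gave 72 of 20665 genes, 43 for the large and 29 for the small subunit, and 4 further matches on chromosome X stayed outside it. The chromatin came from nephron progenitor cells of wild-type mouse kidneys at E16.5, cultured through passages and then crosslinked with formaldehyde. It was precipitated with an antibody against Hdac1 in 1 library and against Hdac2 in the other, with no genotype or treatment compared. The file labels give different antibody amounts, 0.5 µg in the Hdac1 library and 1 µg in the Hdac2 library. The IgG and H3K4me3 control precipitations named in the labels were not analysed here.

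Hdac1 and Hdac2 are closely related histone deacetylases that work as catalytic subunits of corepressor complexes, and both are also found at the promoters of active genes. Ribosomal protein genes are short, are transcribed at high rates in growing cells, and make the proteins of both subunits in matched amounts. Their promoters usually lie in CpG islands and often hold sites for ETS family factors such as GABP, for Sp1 and for YY1. Their transcripts typically begin with a C followed by a run of pyrimidines, which ties their translation to growth signals.

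The data are lists of islands, stretches of the genome in which the SICER program found more reads than in background, 30182 for Hdac1 and 20307 for Hdac2. Each island has a position and 1 value of the authors, a p-value or q-value, used here only to rank islands within its own list. A gene was counted when an island lay within 1 kb of its first or last base. Each antibody has 1 library and the read depth is unknown, so no test was possible, and the 95% Wilson intervals of shares cover counting error only. Genes are not replicates, and a factor present at a gene in few cells cannot be told apart from a weak presence in all. Of the 7 nephron progenitor markers on these chromosomes, all 7 carried Hdac1 and 6 carried Hdac2, where 62.7% and 33.4% of all protein-coding genes did. An island does not measure expression, so the cell label was not checked by this.

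The RefSeq promoter table (GRCm38.p6, the assembly of mm10) held 300 bases around the annotated start of 52 of the 72 genes, 250 before it and 50 from it on. All 52 had an Hdac1 island within 1 kb of that start. The stretches below were chosen to show the ETS-type letters and the pyrimidine start, with and without Hdac2. Stretches of 100 bases are shown 5′ to 3′ on the gene's strand, with the annotated start at base 81. Capitals mark the ETS-type letters CCGGAAG, searched on both strands, and a run of pyrimidines that begins with C at the start and has at least 4 further pyrimidines. The first set are genes with both an Hdac1 and an Hdac2 island at an end, though the Hdac2 island of Rpl41 does not reach its stretch. Rpl38 (chr11:114668500-114668599, plus strand) encodes a large subunit protein whose loss in mice alters translation of Hox transcripts. Rps10 (chr17:27635225-27635324, minus strand) encodes a small subunit protein that is marked with ubiquitin when ribosomes collide, as known from human cells. Rps21 (chr2:180257299-180257398, plus strand), Rpl37 (chr15:5116533-5116632, plus strand) and Rpl41 (chr10:128549149-128549248, minus strand) follow, Rpl41 being the gene of the smallest ribosomal protein.
Rpl38: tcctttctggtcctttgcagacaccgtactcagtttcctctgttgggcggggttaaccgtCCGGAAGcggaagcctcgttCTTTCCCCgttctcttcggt
Rps10: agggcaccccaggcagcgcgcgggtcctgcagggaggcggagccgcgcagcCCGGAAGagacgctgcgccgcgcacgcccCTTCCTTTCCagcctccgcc
Rps21: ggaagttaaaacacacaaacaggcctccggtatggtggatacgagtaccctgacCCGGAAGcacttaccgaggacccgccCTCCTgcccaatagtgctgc
Rpl37: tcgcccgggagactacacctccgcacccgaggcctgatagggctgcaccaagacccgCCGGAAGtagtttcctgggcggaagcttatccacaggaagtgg
Rpl41: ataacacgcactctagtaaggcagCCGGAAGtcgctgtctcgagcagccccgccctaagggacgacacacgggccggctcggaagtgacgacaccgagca

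The second set are genes with an Hdac1 island and no Hdac2 island at either end. Rpl35 (chr2:39005112-39005211, minus strand) encodes a protein at the mouth of the exit tunnel. Rps6 (chr4:86857348-86857447, minus strand) encodes the ribosomal protein that S6 kinases phosphorylate. Rps27 (chr3:90213629-90213728, minus strand), Rpl26 (chr11:68901486-68901585, plus strand), whose human product also binds p53 mRNA, and Rpl28 (chr7:4792885-4792984, plus strand) complete the set.
Rpl35: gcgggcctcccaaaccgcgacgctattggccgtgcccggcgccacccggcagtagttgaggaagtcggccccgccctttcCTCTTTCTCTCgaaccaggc
Rps6: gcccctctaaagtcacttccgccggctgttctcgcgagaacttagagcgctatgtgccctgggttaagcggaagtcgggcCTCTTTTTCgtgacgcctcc
Rps27: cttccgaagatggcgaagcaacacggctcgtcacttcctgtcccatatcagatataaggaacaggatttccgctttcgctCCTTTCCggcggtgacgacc
Rpl26: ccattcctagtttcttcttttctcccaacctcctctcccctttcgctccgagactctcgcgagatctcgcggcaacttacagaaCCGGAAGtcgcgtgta
Rpl28: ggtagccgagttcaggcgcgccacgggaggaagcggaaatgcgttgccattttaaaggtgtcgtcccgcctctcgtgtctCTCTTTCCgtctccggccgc

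Of these 10 stretches, the ETS-type letters stood in Rpl38, Rps10, Rps21, Rpl37, Rpl41 and Rpl26. In Rpl35 and Rps6 they lay elsewhere in the 300 bases. Over the 300 bases, CCGGAAG was found in 21 of 52 ribosomal protein promoters (40.4%, interval 28.2 to 53.9%), against 12.2% of the 16405 promoters of other genes and 12.3% of all promoters. Ribosomal protein genes with Hdac2 at either end held it in 15 of 28 promoters (53.6%, interval 35.8 to 70.5%), and those without Hdac2 in 6 of 24 (25%, interval 12 to 44.9%). These intervals overlap. Among other genes the order was the opposite, with 16.1% of those with both islands and 19% of those with Hdac1 only. The 6 genes without Hdac2 that held the letters were Rpl11, Rpl26, Rpl35, Rpl6, Rps6 and Rpsa.

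A pyrimidine start was found in 12 of 52 ribosomal protein promoters (23.1%, interval 13.7 to 36.1%), against 2.1% of other promoters and 357 of all 16457. It stood in 2.24% of other genes with both islands and 2.11% of those with Hdac1 only. Among ribosomal protein genes it was present in 7 of 28 with Hdac2 (25%), namely Rpl14, Rpl15, Rpl38, Rplp2, Rps10, Rps18 and Rps21, and in 5 of 24 without (20.8%), namely Rpl28, Rpl35, Rps15a, Rps27 and Rps6. The start used was the most upstream one in the table, and another start of the same gene was not searched. The YY1-type letters AAGATGG stood in 17.3% of ribosomal protein promoters, against 6.37% of other promoters and 6.4% of all, with 6.01% of other genes with both islands and 7.34% of those with Hdac1 only. The GC box GGGCGG stood in 57.7% against 47.3% (47.3% of all), but in 70.6% of other genes with both islands and 61.8% of those with Hdac1 only. The E-box CACGTG, which reads the same on both strands, stood in 9.62% against 7.97% (7.97% of all), beside 9.94% and 10.3% in those same groups of other genes. The TATA box letters TATAAA were in 7.69% against 13.6% (13.5% of all), beside 6.09% of other genes with both islands and 7.6% of those with Hdac1 only. All 5 motifs were searched on both strands, and no ribosomal protein promoter had matches of different motifs that overlapped. The median GC content was 58.7% against 56.7% in other genes, and the median number of CpG pairs was 22 against 14. Other genes with both islands had medians of 64% GC and 24 CpG pairs, and those with Hdac1 only 59.7% and 19. A match is a description of letters and not a bound site.

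Hdac1 islands lay at an end of all 72 ribosomal protein genes (100%, interval 94.9 to 100%), where 62.7% of all protein-coding genes had one. For Hdac2 the number was 39 of 72 (54.2%, interval 42.7 to 65.2%), where the share over all genes was 33.4%. Because each of the 72 genes had Hdac1, the closer measure is the share of genes with Hdac1 that also had Hdac2, and that was 51.7% over all genes. The 54.2% of the ribosomal protein genes was thus near the share of all genes with Hdac1. Within gene bodies, 72 genes had Hdac1 (67.6% of all genes) and 37 had Hdac2 (40.3% of all genes). Rpl23a was among the genes with Hdac2 at an end but none in the body.

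Hdac1 islands at ribosomal protein genes were wider than at other genes, with a median of 3.0 kb (interquartile range 2.5 to 3.8 kb) against 2.4 kb (1.6 to 3.4 kb). They also stood higher in their list. Ranked from the strongest, the median place was 14% of the way down at ribosomal protein genes and 20.5% at other genes, and the lowest-placed ribosomal protein gene was at 35.9%. All 72 genes had an island in the upper 50% of the Hdac1 list by value, where 54.4% of all genes and 86.7% of other genes with Hdac1 had such an island.

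Hdac2 islands were not wider at ribosomal protein genes, with a median of 2.2 kb against 2.4 kb at other genes, and they stood low in their list. The median place was 80.8% of the way down at the 39 ribosomal protein genes, against 50.1% at 6868 other genes. An island of the upper 50% of the Hdac2 list was found at 5 of the 72 genes (6.94%), where the share over all genes was 16.6%. Of genes with any Hdac2 island, that is 5 of 39 (12.8%, interval 5.6 to 26.7%) against 49.9% of other genes. The median Hdac2 value was 9.74e-06 at ribosomal protein genes and 2.05e-08 at other genes, and the median Hdac1 value was 1.03e-68 against 8.81e-52.

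**Figure D1:**
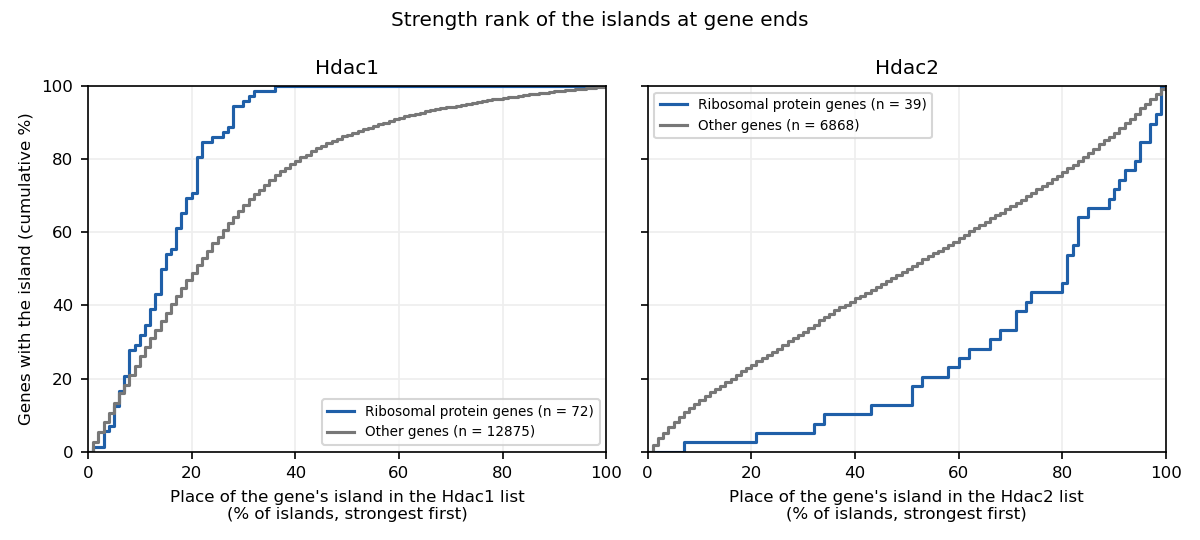
Cumulative share of genes (vertical axis, %) whose strongest island lies within a given part of its list (horizontal axis, % of islands from the strongest), for Hdac1 (left) and Hdac2 (right). Blue lines are the ribosomal protein genes and grey lines all other genes with an island; for Hdac1 the blue line is complete at 35.9%, and for Hdac2 it lies below the grey line over most of the list, with a median place of 80.8% against 50.1%.

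The 5 genes with an Hdac2 island in the upper 50% were Rpl7, Rps29, Rpl14, Rpl23a and Rpl10a. Among the 72 genes Rpl7 had the strongest island in both libraries, 6.6 kb wide (7.25e-289) with Hdac1 and 3.0 kb (7.06e-18) with Hdac2. Both islands of Rpl7 were also at an end of Rdh10. At Rps29 the islands measured 3.6 kb (6.11e-51) with Hdac1 and 2.2 kb (4.65e-12) with Hdac2, and both covered the whole gene. At Rpl14 they measured 2.8 kb (9.57e-62) with Hdac1 and 0.8 kb (2.13e-10) with Hdac2, the narrowest Hdac2 island of all 39. The widths of the Hdac2 islands thus differed among these genes. At Rpl23a the strongest islands of both lists, 4.4 kb (9.83e-111) for Hdac1 and 4.0 kb (4.04e-10) for Hdac2, lay outside the gene body. They were within 1 kb of an end, and also at an end of Nek8 and of its neighbour Tlcd1. Rpl10a had Hdac1 over 6.6 kb (2.75e-107) and Hdac2 over 3.0 kb (3.53e-09). Its Hdac1 island was also at an end of Tead3, and its Hdac2 island at an end of Fance. The other 34 Hdac2 islands reached down to Rps18, at 98.7% of the list.

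The large subunit has its stalk, the arm that recruits translation factors, built from Rplp0, Rplp1 and Rplp2 on a base that includes Rpl12. Rplp2 had both islands, 2.8 kb (2.37e-80) for Hdac1 and 1.8 kb (2.12e-07) for Hdac2. Rplp0 (2.4 kb, 1.02e-50), Rplp1 (1.8 kb, 3.23e-79) and Rpl12 (7.0 kb, 1.34e-102) had Hdac1 and no Hdac2 at an end, so 1 of these 4 stalk genes had Hdac2. The Rplp0 island with the lowest value lay past its far end, and a second Hdac1 island lay over its start. An Hdac2 island lay within the long Hdac1 island of Rpl12, 1.36 kb from the gene.

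Rpl5 and Rpl11 bind 5S rRNA and, when ribosome assembly fails, the p53 regulator Mdm2. Rpl5 had Hdac1 over 2.8 kb (9.23e-57) and Hdac2 over 2.0 kb (7.25e-06). Rpl11 had 2.6 kb (1.03e-71) for Hdac1 and no Hdac2 island. Around the peptidyl transferase centre and the exit tunnel, Rpl3 had Hdac1 over 4.0 kb (3.47e-52) and Hdac2 over 2.8 kb (0.0001). Rpl4 had Hdac1 and Hdac2 at both its start and its far end, though its strongest Hdac1 and Hdac2 islands did not overlap. Rpl17, a tunnel protein gene, had 2.4 kb (2.71e-51) for Hdac1 and no Hdac2. Each of these genes had Hdac1, as did all 72. Partners in a structure were named after their values were seen, so their differences in Hdac2 are no result about structures.

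Among other large subunit genes, Rpl38 had Hdac1 over 2.4 kb (3.98e-87) and Hdac2 over 1.8 kb (1.04e-06). Rpl24, in which a mouse mutation causes a belly spot and kinked tail, had Hdac1 over 4.0 kb (1.57e-95) and Hdac2 over 4.4 kb (1.62e-06), the widest Hdac2 island of the 39. The strongest islands of Rpl24 lay at its far end, where its neighbour Zbtb11 also has an end, and its start had Hdac1 only. The remaining large subunit genes with Hdac2 were Rpl31, Rpl37a, Rpl9, Rpl13a, Rpl27a, Rpl29, Rpl41, Rpl23, Rpl19, Rpl27, Rpl15, Rpl37, Rpl30, Rpl35a and Rpl36, with Hdac2 widths from 1.0 kb at Rpl27 and Rpl27a to 2.8 kb at Rpl9 and Rpl35a. In all 25 of 43 large subunit genes had Hdac2 (58.1%, interval 43.3 to 71.6%). The 18 without it included the 5 named above, Rpl26, Rpl28 and Rpl35 of the second set of sequences, and Rpl7a, Rpl34, Rpl21, Rpl32, Rpl13, Rpl18, Rpl8, Rpl6 and Rpl22.

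The other large subunit genes with Hdac2 mostly had the narrower island in the Hdac2 list. Rpl27 had Hdac1 over 3.6 kb (1.62e-61) and Hdac2 over 1.0 kb (2.14e-08). At Rpl27a Hdac1 spanned 2.6 kb (2.69e-55) and Hdac2 1.0 kb (1.09e-06). The pair of islands at Rpl23 covered 3.4 kb (1.11e-77) with Hdac1 and 1.2 kb (0.000452) with Hdac2. At these 3 genes the Hdac1 island was more than 1 kb wider than the Hdac2 island. Rpl31 had Hdac1 over 3.0 kb (2.2e-50) and Hdac2 over 1.6 kb (6.38e-05). At Rpl30 Hdac1 spanned 3.4 kb (1.19e-103) and Hdac2 1.6 kb (2.1e-08). The pair of islands at Rpl37a covered 3.2 kb (3.64e-27) with Hdac1 and 1.6 kb (8.52e-06) with Hdac2. Each of these 3 Hdac2 islands measured 1.6 kb. Rpl15 had Hdac1 over 4.4 kb (9.39e-53) and Hdac2 over 2.2 kb (8.5e-08). At Rpl41 Hdac1 spanned 4.6 kb (2.57e-124) and Hdac2 2.2 kb (0.00388). Rpl19 had Hdac1 over 3.0 kb (5.89e-58) and Hdac2 over 2.4 kb (1.48e-05). Other islands lay over its annotated start. There Hdac1 ran 0.91 kb upstream and 1.89 kb downstream, and Hdac2 2.31 kb upstream and 0.49 kb downstream. Rpl19 and Rpl15 have neighbours within 1 kb, Cacnb1 and Nkiras1, and Rpl41 has Zc3h10. The strongest Hdac1 and Hdac2 islands of each of these genes were also at an end of its neighbour. At Rpl37 Hdac1 spanned 3.4 kb (5.7e-57) and Hdac2 2.4 kb (1.08e-05). The pair of islands at Rpl9 covered 2.8 kb (2.89e-66) with Hdac1 and 2.8 kb (0.00106) with Hdac2. Rpl35a had Hdac1 over 2.4 kb (6.88e-69) and Hdac2 over 2.8 kb (0.00028). At Rpl35a the Hdac2 island was the wider one, and at Rpl9 both had the same width.

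In the small subunit, Rps2 and Rps3 lie at the entry channel of the mRNA. Rps2 had Hdac1 over 2.6 kb (5.19e-75) and Hdac2 over 1.8 kb (2.33e-05), while Rps3 had 2.6 kb (7.84e-60) for Hdac1 and no Hdac2. Rps26, which contacts the mRNA near the exit side, had Hdac1 over 2.6 kb (3.49e-98) and Hdac2 over 3.6 kb (0.000619). The Hdac2 island of Rps26 was wider than its Hdac1 island and covered the whole gene. Near the decoding site, Rps23 (2.8 kb, 8.32e-35) and Rps15 (6.0 kb, 5.03e-74) had Hdac1 and no Hdac2. The head protein gene Rps10 had the widest Hdac2 island of the small subunit, 4.2 kb (1.33e-07), beside an Hdac1 island of 4.2 kb (8.68e-100).

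Rps19, the gene most often mutated in human Diamond-Blackfan anaemia, had 3.0 kb (6.65e-106) for Hdac1 and no Hdac2. Rps6 had 3.2 kb (5.88e-39) for Hdac1, and Rpsa, whose product is also known as a laminin receptor, had 1.8 kb (1.27e-70). Neither had an Hdac2 island. Rps27a, which encodes a fusion of ubiquitin and a ribosomal protein, had Hdac1 over 2.0 kb (2.31e-62) and Hdac2 over 1.4 kb (1.37e-05). Others with Hdac2 included Rps21, Rps16, Rps25, Rps12, Rps7 and Rps18, with widths from 1.2 kb at Rps7 to 3.2 kb at Rps16. In all 14 of 29 small subunit genes had Hdac2 (48.3%, interval 31.4 to 65.6%), and the intervals of the large and small subunits overlap. Others without Hdac2 included Rps27, Rps20, Rps9, Rps13, Rps15a, Rps24, Rps28 and Rps14.

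Among the other small subunit genes with Hdac2 the wider island was in some cases that of Hdac2. Rps16 had Hdac1 over 2.2 kb (8.2e-80) and Hdac2 over 3.2 kb (3.6e-08). At Rps25 Hdac1 spanned 2.2 kb (5.57e-120) and Hdac2 3.0 kb (2.16e-06). The pair of islands at Rps12 covered 2.2 kb (1.24e-120) with Hdac1 and 2.8 kb (0.0051) with Hdac2. At these 3 genes the Hdac2 island was the wider, and each had an Hdac1 island of 2.2 kb. Rps7 had Hdac1 over 3.0 kb (2.36e-38) and Hdac2 over 1.2 kb (9.74e-06). The pair of islands at Rps21 covered 3.2 kb (1.71e-70) with Hdac1 and 1.6 kb (1.42e-05) with Hdac2. Here the Hdac1 island was the wider, and that of Rps21 covered the whole gene.

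Large and small subunit genes had near median places in the Hdac1 list, 14% and 13.5%, with median widths of 3.2 kb and 2.8 kb. Other Hdac1 shares lay further apart, with overlapping intervals. Hdac1 covered the whole gene at 11.6% of large and 27.6% of small subunit genes, and more than 1 island lay at the ends of 27.9% and 10.3%. Of Hdac1 islands over the start, 93.3% and 76.2% were longer downstream. Hdac2 islands had a median width of 2.0 kb at large and 2.4 kb at small subunit genes, at median places of 72.3% and 83.8%. At annotated starts the shares with Hdac2 were 18 of 31 (58.1%, interval 40.8 to 73.6%) for the large and 8 of 21 (38.1%, interval 20.8 to 59.1%) for the small subunit. Another protein-coding gene lay within 1 kb of 19 of 43 large (44.2%) and 8 of 29 small subunit genes (27.6%). Without such a neighbour, Hdac2 lay at 11 of 24 large (45.8%) and 9 of 21 small subunit genes (42.9%). With one, the counts were 14 of 19 (73.7%) and 5 of 8 (62.5%). The difference between subunits was not tested, since each share comes from 1 library.

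**Figure D2:**
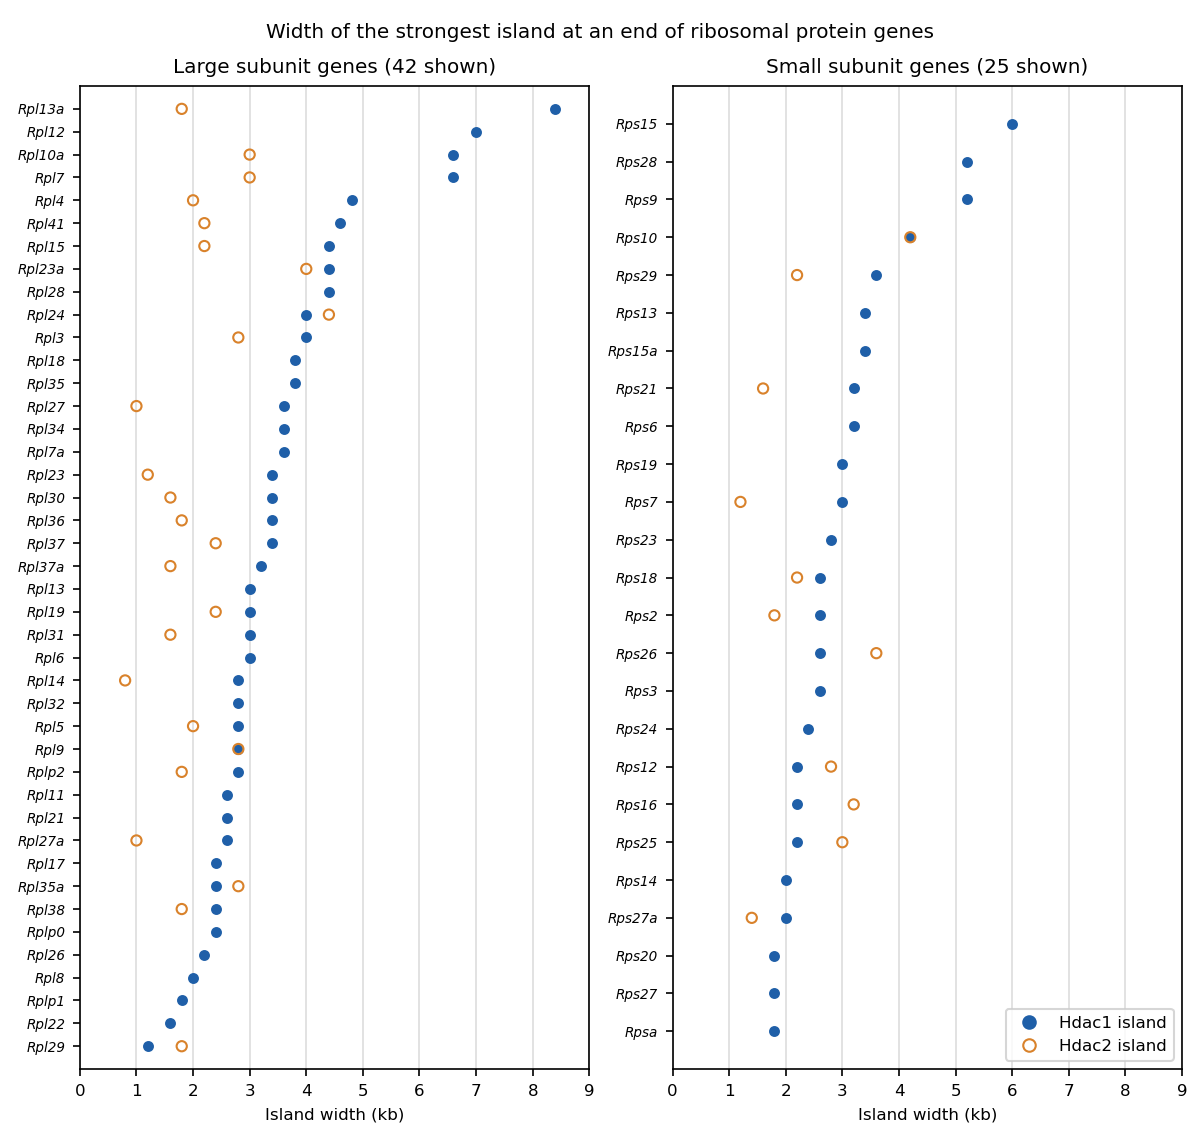
Width in kb of the strongest Hdac1 and Hdac2 island at an end of the ribosomal protein genes that are reported individually, with large and small subunit genes apart and a gene without an Hdac2 island having no Hdac2 point. Hdac1 widths run from 1.2 kb at Rpl29 to 8.4 kb at Rpl13a, and Hdac2 widths from 0.8 kb at Rpl14 to 4.4 kb at Rpl24.

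The widest Hdac1 island lay at Rpl13a, where 8.4 kb (8.83e-148) covered the whole gene, with Hdac2 over 1.8 kb (7.47e-05) within it. Rpl12 followed with 7.0 kb, and Rpl7 and Rpl10a with 6.6 kb each. The narrowest Hdac1 island, 1.2 kb (2.69e-53), was at Rpl29, which had Hdac2 over 1.8 kb (4.62e-07). Rpl22 had 1.6 kb (2.02e-119), and Rplp1, Rpsa, Rps20 and Rps27 had 1.8 kb each, all 5 without Hdac2. The weakest Hdac1 values were 3.64e-27 at Rpl37a, 1.23e-32 at Rps13 and 3.02e-33 at Rpl6. Rpl37a, last by Hdac1 value, had an Hdac2 island of 1.6 kb (8.52e-06), while Rps13 and Rpl6 had none.

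At the 39 genes with both, the strongest Hdac1 and Hdac2 islands overlapped in 36, a count not made for other genes. The exceptions were Rpl4, Rps18 and Rpl36, where the strongest islands of the lists lay at different ends. At Rpl4 (chr9:64173387-64178562) the Hdac1 island spanned chr9:64171001-64175800 (1.49e-155) and the Hdac2 island chr9:64177801-64179800 (6.43e-07). At Rps18 (chr17:33951998-33955665, minus strand) Hdac1 spanned chr17:33954001-33956600 over the start (2.28e-127), and Hdac2 spanned chr17:33950201-33952400 at the far end (0.00662). At Rpl36 (chr17:56610094-56614246) Hdac1 spanned chr17:56612001-56615400 (4.92e-45) and Hdac2 chr17:56608401-56610200 (9.8e-06). Each of these 3 Hdac2 islands also lay at an end of another gene, Snapc5 at Rpl4, Wdr46 and B3galt4 at Rps18, and Micos13 at Rpl36. Rpl4 and Rpl36 had a second Hdac2 island at an end, and the Hdac1 island of each overlapped an Hdac2 island. All 3 genes also had 2 Hdac1 islands at their ends. Hdac1 thus lay at both the start and the far end of Rpl4 and Rps18, and only the strongest islands were apart.

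For the 33 genes without Hdac2 at an end, the nearest Hdac2 island lay at a median distance of 26.0 kb. The distance ran from 1.4 kb at Rpl12 to 403.3 kb at Rps20, and 25 of the 33 had none within 10 kb. Such distances were not measured for other genes, so whether these are unusual was not tested. The 6 genes with none within 100 kb were Rpl34, Rpsa, Rpl26, Rps24, Rps23 and Rps20. Genes with Hdac2 differed little from those without in Hdac1, with a median Hdac1 width of 3.2 kb against 3.0 kb and a median place in the Hdac1 list of 12.1% against 15.8%.

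Among other genes, wider Hdac1 islands carried Hdac2 more often, and Hdac2 at the ribosomal protein genes was read against other genes of like Hdac1 width. With other genes weighted to the Hdac1 widths of the ribosomal protein genes in steps of 200 bp, 54.2% of ribosomal protein genes had Hdac2 against 63.9% of other genes. The difference was -9.7 percentage points (ribosomal protein minus other genes), 39 genes where 46 would give the weighted share, and 63.9% lies inside the interval of 42.7 to 65.2%. For the large subunit the shares were 58.1% against 65.6% (-7.5 points), and for the small subunit 48.3% against 61.3% (-13.0 points). At widths above 1.4 and up to 2.0 kb, 1 of 8 ribosomal protein genes had Hdac2 (12.5%, interval 2.24 to 47.1%) against 38.4% of other genes. Above 2.0 and up to 2.6 kb it was 10 of 17 (58.8%) against 51.5%, and above 4.0 kb 9 of 14 (64.3%, interval 38.8 to 83.7%) against 83%. The 2 steps between, up to 3.2 kb and up to 4.0 kb, each had 9 of 16 (56.2%) against 64.2% and 73.8%. Restricted to the upper 50% of both lists, the shares were 6.94% against 34.9%, a difference of -27.9 points.

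**Figure D3:**
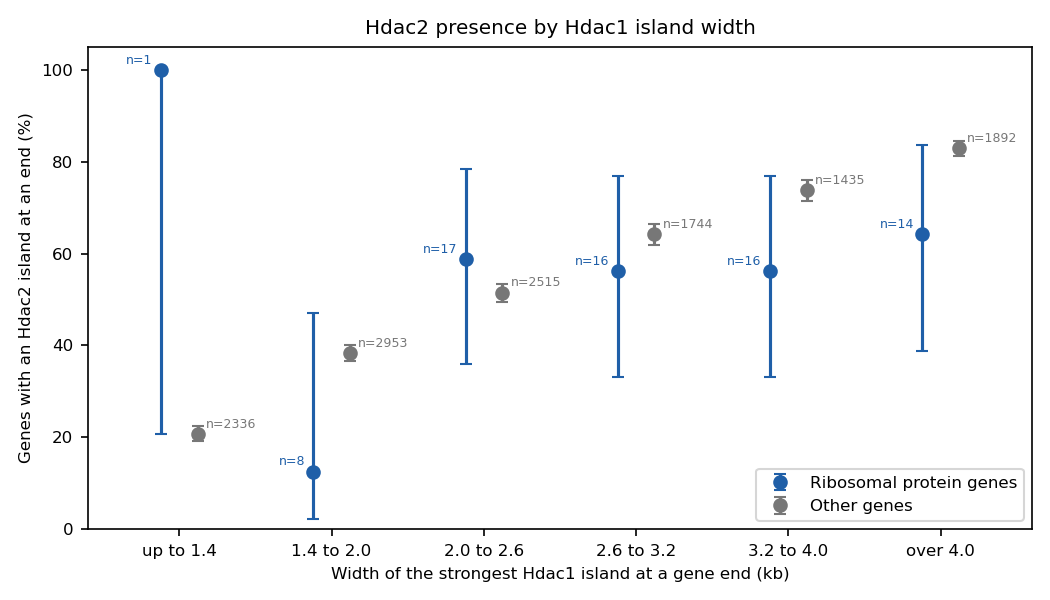
Share of genes with Hdac2 (vertical axis, %, with 95% Wilson bars) by width of the Hdac1 island (horizontal axis, kb), for ribosomal protein genes and for other genes. Other genes climb from 20.7% to 83%, while ribosomal protein genes lie between 56.2% and 64.3% above 2.0 kb, and the narrowest step holds 1 gene only.

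Gene length and neighbouring genes were also compared, after the values were seen. The median length was 3.2 kb for ribosomal protein genes and 23.2 kb for other genes with Hdac1. With width decile and length decile both kept, the difference was -5.9 points. Weighted by decile of gene length alone, with Hdac1 width no longer matched, other genes had Hdac2 in 50.1% and the difference was 4.0 points, where the unweighted shares were 54.2% against 51.7%. Of the 27 ribosomal protein genes with another protein-coding gene within 1 kb, 19 had Hdac2 (70.4%, interval 51.5 to 84.1%), and of the 45 without such a neighbour 20 had it (44.4%, interval 30.9 to 58.8%). Among other genes with Hdac1 these shares were 53.3% and 50.6%. At like Hdac1 width the difference from other genes was 3.8 points with a neighbour (70.4% against 66.5%) and -17.7 points without one (44.4% against 62.1%). In all, 19 of the 39 Hdac2 islands were also at an end of another gene, as were the strongest Hdac1 islands of 28 of the 72 genes (38.9%). Which gene such an island belongs to cannot be told apart.

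The islands were placed differently about the start of transcription. All 52 ribosomal protein genes with an annotated start had Hdac1 within 1 kb of it (62.3% of all genes), and 26 had Hdac2 there (50%, against 32.7% of all genes and 51.4% of other genes with Hdac1 at the start). At 51 starts the Hdac1 island lay over the start itself, the exception being Rpl22. It then ran a median of 0.94 kb upstream and 2.07 kb downstream, against 0.91 kb and 1.31 kb at other genes. It was longer downstream than upstream in 44 of 51 genes (86.3%, interval 74.3 to 93.2%), against 68.3% of other genes. The 7 exceptions were Rpl7a, Rps27, Rps25, Rpl14, Rps2, Rps10 and Rps28. At like width the mean downstream reach was 2.35 kb against 2.09 kb in other genes, and the mean upstream reach 1.09 kb against 1.52 kb.

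Hdac2 islands lay over 25 starts and reached less far downstream. They ran a median of 1.05 kb upstream and 0.94 kb downstream, against 0.96 kb and 1.26 kb at other genes, and 13 of 25 were longer downstream (52%, interval 33.5 to 70%). At these 25 starts Hdac1 ran a median of 1.84 kb downstream. In 21 of the 25 (84%, interval 65.3 to 93.6%) Hdac1 reached farther downstream than Hdac2, against 64.9% of other genes with both over the start. The exceptions were Rpl9, Rps25, Rps26 and Rps2. At Rpl27, for example, both islands began 0.44 kb upstream, and Hdac1 ran 3.15 kb downstream against 0.56 kb for Hdac2. At Rps26 Hdac1 ran 1.71 kb downstream and Hdac2 2.90 kb. Upstream, Hdac1 reached farther than Hdac2 in 12 of 25 genes (48%), against 56.1% of other genes. SICER edges move in steps of 200 bp, and how depth and island strength move the edges was not tested.

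**Figure D4:**
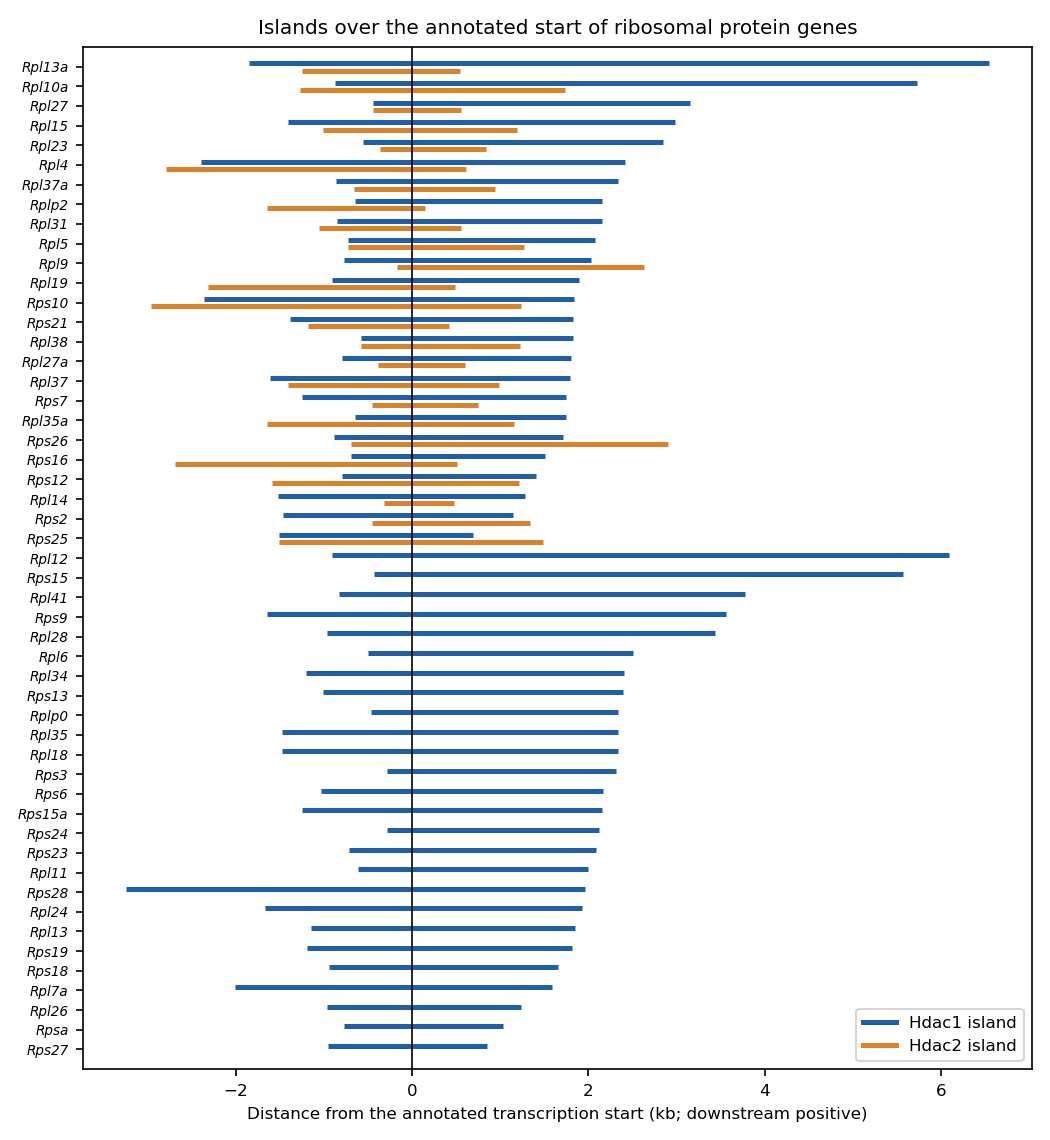
Reach of the Hdac1 and Hdac2 islands about the annotated start, in kb upstream and downstream of it, for the ribosomal protein genes with an island over the start. Hdac1 reaches a median of 2.07 kb downstream at 51 genes, and Hdac2 0.94 kb at 25 genes.

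Short genes under long islands were often covered from end to end. Hdac1 covered a median of 65.4% of a ribosomal protein gene, against 7.58% of other genes with Hdac1 and 26.9% of those no longer than the longest ribosomal protein gene, 11.8 kb. Whole genes were covered in 13 of 72 (18.1%) against 2.91% of other genes, 5 in the large subunit (Rpl12, Rpl28, Rpl13a, Rpl41 and Rpl10a) and 8 in the small subunit, among them Rps21, Rps9, Rps15, Rps29, Rps23 and Rps28. Hdac2 covered Rps26 and Rps29 whole. The far end of the gene lay within 1 kb of Hdac1 in 29 of 52 genes (55.8%) against 11.3% of other genes, and of Hdac2 in 11 of 52 (21.2%) against 5.24%. The far-end and whole-gene shares of other genes were not matched for length. Other genes with Hdac1 had a median length of 23.2 kb, against 3.2 kb for ribosomal protein genes. The far-end shares also include other genes without an island at the start. Rpl24 and Rps18 had Hdac2 at the far end only.

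Other genes of the translation machinery were measured in the same way. Of 11 ribosomal protein genes that the symbol rule does not match, 9 had Hdac1 and 3 of those had Hdac2 (33.3%, against 53.6% of other genes of like Hdac1 width). Rps3a1 had Hdac1 over 4.0 kb (3.82e-54) and Hdac2 over 2.0 kb (8.09e-05), and Rps27l and Rpl36al also had both. Fau, which encodes a ribosomal protein fused to a ubiquitin-like protein, and Rack1, the scaffold on the small subunit, had Hdac1 and no Hdac2. Rpl10l and Rpl39l had neither.

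Of 14 translation and other genes whose transcripts are known for a pyrimidine start, all 14 had Hdac1 and 9 had Hdac2 (64.3%, against 65.5% at like width). Eef1a1, which brings aminoacyl-tRNA to the ribosome, had Hdac1 over 8.6 kb (5.26e-107) and Hdac2 over 6.8 kb (6.81e-07). Pabpc1, the poly(A)-binding protein gene, had Hdac1 over 3.4 kb (5.21e-223) and Hdac2 over 3.0 kb (2.72e-12). Genes with symbols of Eif and a digit, called initiation factors here, were taken by symbol alone. Eif3e, Eif3f, Eif3h and Eif4b of the pyrimidine-start list also meet that rule. These genes had Hdac1 at 50 of 53 and Hdac2 at 34 of those (68%, against 54.9% at like width). Genes of ribosome assembly and RNA polymerase I had Hdac1 at 32 of 33, the exception being Ubtf, and Hdac2 at 15 (46.9%, against 56.1%). Within that list Myc, which drives ribosome production, had Hdac1 over 7.4 kb (3e-235) and Hdac2 over 5.0 kb (2.94e-21). Mitochondrial ribosomal protein genes had Hdac1 at 77 of 78 and Hdac2 at 28 (36.4%, against 41.4%), with a median Hdac1 width of 1.8 kb. The median place of Hdac2 islands in their list was 89.5% for the ribosomal protein genes outside the rule, 68% for the pyrimidine-start genes, 72.8% for initiation factors, 66.9% for assembly genes and 64.4% for mitochondrial ribosomal proteins, beside 80.8% for the 72 genes.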

How the data were processed

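Hdac1 and Hdac2 ChIP-seq libraries of cultured nephron progenitor cells were analysed from 2 island lists, 1 library per antibody. The labels' protocols give 500 pg of DNA per library, amplified for 12 cycles and further cycles as needed. The authors used BWA 0.7.5a, SICER, SAMtools 1.3.1, bedtools 2.17 and FastQC with build mm10, per the submitters' processing notes. Settings and version of SICER, depth and the background library were not given in the sources used here. Lists deposited by the authors give 1 p-value or q-value per island, all below 0.1, without saying which. Starts in the files count from 0 and are given 1-based.

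Genes, promoters and strand came from RefSeq tables of GRCm38.p6, with strand known for genes with a promoter entry. An island counted with at least 1 bp within 1 kb of a gene end. Where several did, the lowest value, then the widest, was used. Other genes were weighted to the Hdac1 widths in steps of 200 bp, joined up to 1 kb and from 8 kb. Individual results of some genes are not reported here, though all genes stay in the counts. Of the rest, described in full were those with Hdac2, the 3 widest, narrowest, strongest and weakest by Hdac1, and those whose strongest islands do not overlap. Others were named as partners of known structures, after their values were seen. Genes and lists were chosen with earlier results of these data known. Counts were checked on simulated data against bedtools 2.31.1. Tables were made with pandas 2.3.3 and numpy 2.4.6 and figures with matplotlib 3.10.9, in Python 3.11.15.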

Additional observations from a re-analysis of the deposited data

How the results depend on the processing

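No paired analysis was possible because each antibody has 1 library, and for the same reason no replicate could be left out. With the upper 50% of each list by value, Hdac2 lay at 5 ribosomal protein genes (both islands at 5), in the bodies of 4 (a setting added after the data were seen), at 9.3% of large and 3.45% of small subunit genes, with a median width of 3.0 kb, and the difference from other genes of like Hdac1 width was -27.9 percentage points. At like width it was 3.8 points among genes with a neighbour within 1 kb. Matched on gene length decile with width no longer matched, the difference was 4.0 points, and with width and length deciles together -5.9 points. These 3 settings were added after the data were seen, and the cause was not tested. Among genes with no neighbour within 1 kb the difference was -17.7 points, and with each Hdac1 island counted once -10.2 points. Both of these settings were also added after the data were seen. Under the other settings the difference lay between -15.8 and -8.4 points. With islands touching the first or last base, Hdac1 lay at 67 and Hdac2 at 35 of the 72 genes, and with a 5 kb window at 72 and 42. Median widths with the widest island or with islands merged within 1 kb were 3.0 and 3.2 kb for Hdac1 and 2.4 and 2.2 kb for Hdac2. Read depth is unknown, so a gene without an island is one where none was called.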

Other observations

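More than 1 Hdac1 island lay at the ends of 15 of the 72 ribosomal protein genes (20.8%), against 9.67% of other genes with Hdac1, with 12 of the 15 in the large subunit, and Rpl24 had 3 such islands.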
